A study of Homo sapiens with 9 samples.

Results

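This section describes 10 genes of the epithelial-mesenchymal transition (EMT) in MDA-MB-231 cells exposed to YM-155: the transcription factor genes SNAI1, SNAI2, TWIST1, TWIST2, ZEB1 and ZEB2, the cadherin genes CDH1 and CDH2, and VIM and FN1. They were chosen by name, with earlier results of these data known, and read from probe sets that carry exactly 1 gene symbol. All 10 were found among the 22109 genes measured, each with a single probe set, so no choice between probe sets was needed. RNA was taken from 3 groups of 3 samples. Control cells had no treatment, and neither a time nor a vehicle is given for them. The 8 h group had YM-155 added in steps up to a total of 83 ng/ml, and the 20 h group had 14.6 ng/ml, which the submitters give as the LC50. Dose and time therefore differ together between the treated groups. YM-155 (sepantronium bromide) is a small molecule known for lowering survivin, an inhibitor of apoptosis. MDA-MB-231 is an established breast cancer line from a pleural effusion, so all values come from 1 line. The labels do not say whether replicates came from separate cultures, and the p-values then cover no more than the spread among these samples, possibly a technical one.

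In an EMT, cells lose E-cadherin junctions and keratin-rich architecture and take on vimentin filaments, fibronectin matrix and motility. SNAI1 (Snail) and SNAI2 (Slug) are zinc finger repressors that bind E-box sequences, and E-cadherin is their best known target. ZEB1 and ZEB2 are zinc finger and homeodomain repressors of the same kind of target, and TWIST1 and TWIST2 are basic helix-loop-helix factors. CDH1 encodes E-cadherin, the cadherin of epithelial adherens junctions, and CDH2 encodes N-cadherin, which many cells gain in an EMT. VIM encodes vimentin and FN1 encodes fibronectin. MDA-MB-231 is known as a mesenchymal-like line, so it serves as a model of cells that have already passed much of this change.

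The microRNAs of the miR-200 family hold ZEB1 and ZEB2 down in epithelial cells, and the factors in turn repress the family's loci. Their mature sequences are shown because the seed sorts the family into those of MIR200A and MIR141 and those of MIR200B, MIR200C and MIR429. Capitals mark the seed (bases 2 to 8), and the sequences are from RefSeq (GRCh38.p14).
hsa-miR-200a-3p: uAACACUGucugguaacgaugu
hsa-miR-141-3p: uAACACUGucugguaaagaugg
hsa-miR-200b-3p: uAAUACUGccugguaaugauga
hsa-miR-200c-3p: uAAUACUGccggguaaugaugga
hsa-miR-429: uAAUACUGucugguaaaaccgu
The array reads the loci, not the mature forms, and the values of these 5 loci are given after those of the transcription factors.

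A Snail-type E-box was then searched for in the 250 bases before each gene's start. It was spelled CACCTG, or CAGGTG on the other strand. RefSeq windows (GRCh38.p14) were at hand for 6 of the 10 genes: TWIST2, ZEB1, ZEB2, CDH2, VIM and FN1. The motif was found in 1 of these 6, ZEB1, which is near the share of 17.5% among all 35116 windows of that length. SNAI1, SNAI2, TWIST1 and CDH1 had no window, so the search says nothing of them. The ZEB1 window is shown because it alone of the 6 held the motif. It spans chr10:31318167-31318416 on the plus strand, and capitals mark the motif, from 57 to 52 bases before the start.
ZEB1: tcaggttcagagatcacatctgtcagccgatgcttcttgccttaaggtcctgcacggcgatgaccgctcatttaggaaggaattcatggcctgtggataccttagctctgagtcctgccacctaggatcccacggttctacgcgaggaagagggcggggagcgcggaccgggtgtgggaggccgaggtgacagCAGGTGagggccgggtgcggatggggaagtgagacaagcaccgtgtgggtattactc
A match of letters is a description of the window and not a binding site.

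Values are log2 RMA summaries, in which 1 unit is a doubling, and a call is a limma p adjusted over all genes under 0.05. The number of arrays limits the precision. A level on an array cannot tell more RNA per cell from more cells with that RNA. Per the labels, the 8 h cells showed no obvious cell death, while nothing is said of it for the cells collected at 20 h. Probe sets differ in how brightly they report, so levels are compared between groups and not between genes. As a guide to background, the 95th percentile of 354 olfactory receptor genes, a family of the nose, lay between 3.61 and 3.84 on the 9 arrays. SNAI1, SNAI2, ZEB1, ZEB2, CDH1, VIM and FN1 were above it on all 9 arrays, and TWIST1, TWIST2 and CDH2 on 0. All 8 measured markers of mesenchymal-like breast lines (VIM, CD44, EGFR, AXL, MSN, CAV1, NT5E and ZEB1) were above it on every array, as were 6 of 11 luminal markers. Those 6 luminal genes were GATA3, KRT8, KRT18, KRT19, EPCAM and CDH1, while ESR1, PGR and FOXA1 were above it on 0 arrays. Among the controls, replicate 3 was farthest from the rest, with an SD of its difference from them of 0.312 and 0.313 against 0.187 between those 2, over the 11054 genes above the median level. Counts against control that change without it are given both ways.

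Of the 10 genes, 4 rose at 8 h (SNAI1, SNAI2, ZEB1 and CDH1) and 0 fell. Without control replicate 3, CDH1 was not called at 8 h (limma adjusted p = 0.0773), which made 3 that rose. Over all genes 5.93% were called higher and 6.28% lower. At 20 h, 3 rose (SNAI1, SNAI2 and FN1) and 0 fell, against 13.1% higher and 17.2% lower over all genes. Between 20 h and 8 h, SNAI1 was higher and ZEB1 lower, against 8.95% higher and 13.6% lower over all genes. The median log2 change of the 10 genes was 0.12 at 8 h and 0.11 at 20 h, beside medians of -0.003 and 0.028 over all genes. The 8 h and 20 h comparisons share the same control arrays. Because the genes were chosen with earlier results known, their counts are no test against the shares over all genes. The large changes were those of the Snail genes, and the remaining changes were at most 0.48 log2 units in size.

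**Figure D1:**
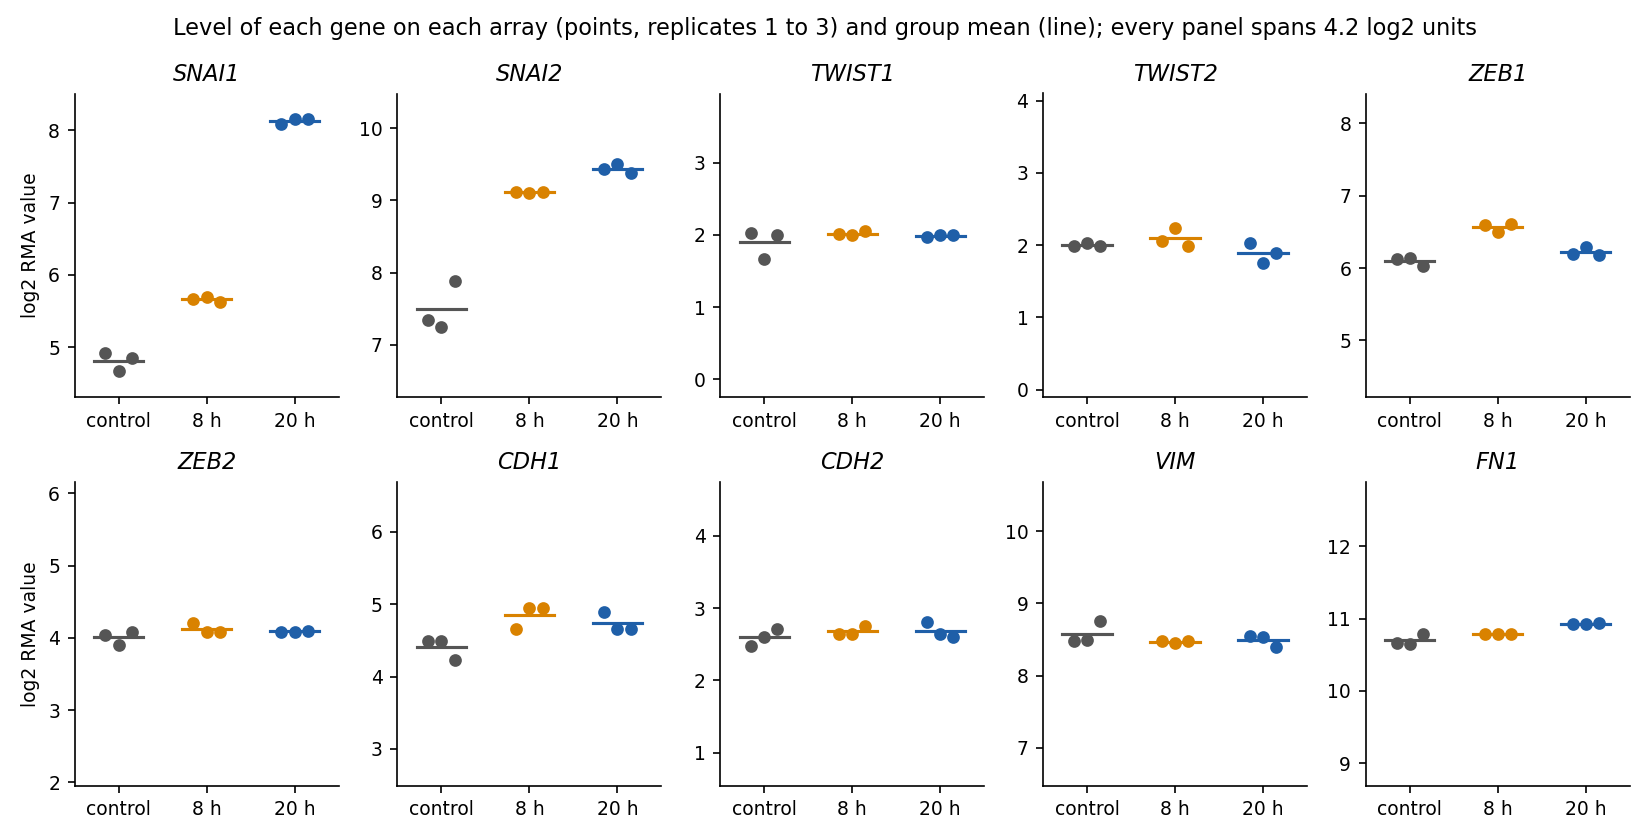
Log2 RMA value of each of the 10 genes on each array (points; replicates 1 to 3 from left to right) with the group mean (line), for control, 8 h and 20 h; every panel spans 4.2 log2 units. The SNAI1 means are 4.81, 5.66 and 8.13 and the SNAI2 means 7.49, 9.11 and 9.44, while the points of TWIST1, TWIST2, ZEB2, CDH2 and VIM overlap between groups.

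SNAI1, the Snail repressor gene, had log2 values of 4.92, 4.66 and 4.86 in the controls, 5.67, 5.69 and 5.63 at 8 h, and 8.09, 8.15 and 8.15 at 20 h. The 3 groups did not overlap, and the gap between 8 h and 20 h was wider than that between control and 8 h. SNAI1 rose by 0.85 at 8 h (SE 0.08, limma adjusted p = 0.000166), a fold of 1.80 (95% interval 1.58 to 2.05). At 20 h it rose by 3.32 (SE 0.08, limma adjusted p = 5.58e-08), a fold of 9.98 (8.76 to 11.4), from 4.81 ± 0.13 to 8.13 ± 0.04 (SD, n = 3). That was the 7th largest rise among the 22109 genes, while its change at 8 h ranked 348th. The direct comparison of 20 h with 8 h gave a difference of 2.47 (SE 0.08, limma adjusted p = 5.24e-07), a fold of 5.54 (4.87 to 6.31).

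SNAI2, the Slug repressor gene, had log2 values of 7.34, 7.25 and 7.88 in the controls, 9.11, 9.11 and 9.11 at 8 h, and 9.43, 9.51 and 9.37 at 20 h. All treated arrays were above all controls, and among the controls replicate 3 was the highest. SNAI2 rose by 1.62 at 8 h (SE 0.14, limma adjusted p = 9.36e-05), a fold of 3.07 (2.46 to 3.83), and by 1.95 at 20 h (SE 0.14, limma adjusted p = 4.77e-06), a fold of 3.85 (3.09 to 4.81). Without control replicate 3 the rises were 1.81 and 2.14. Its rise ranked 49th of all genes at 8 h and 103rd at 20 h. The 3 arrays at 20 h were above the 3 at 8 h by a mean of 0.33, which did not pass (SE 0.14, limma adjusted p = 0.138, interval 0.01 to 0.65). That difference was called without control replicate 3 (adjusted p = 0.00861), with only the 2 groups compared (0.0129) and with array weights (0.0464).

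The Snail genes thus differed in how their changes in the treated groups compared. SNAI2 changed by 1.62 at 8 h and 1.95 at 20 h, while SNAI1 changed by 0.85 and 3.32. The treated groups differ in dose as well as time, so these values are not points of a single time course. The difference between the genes was not tested as such. SNAI3, the remaining gene of the family, was below the olfactory level on all 9 arrays, with group means of 2.94, 2.92 and 3.21, and passed no comparison (limma adjusted p = 0.981, 0.287 and 0.291).

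**Figure D2:**
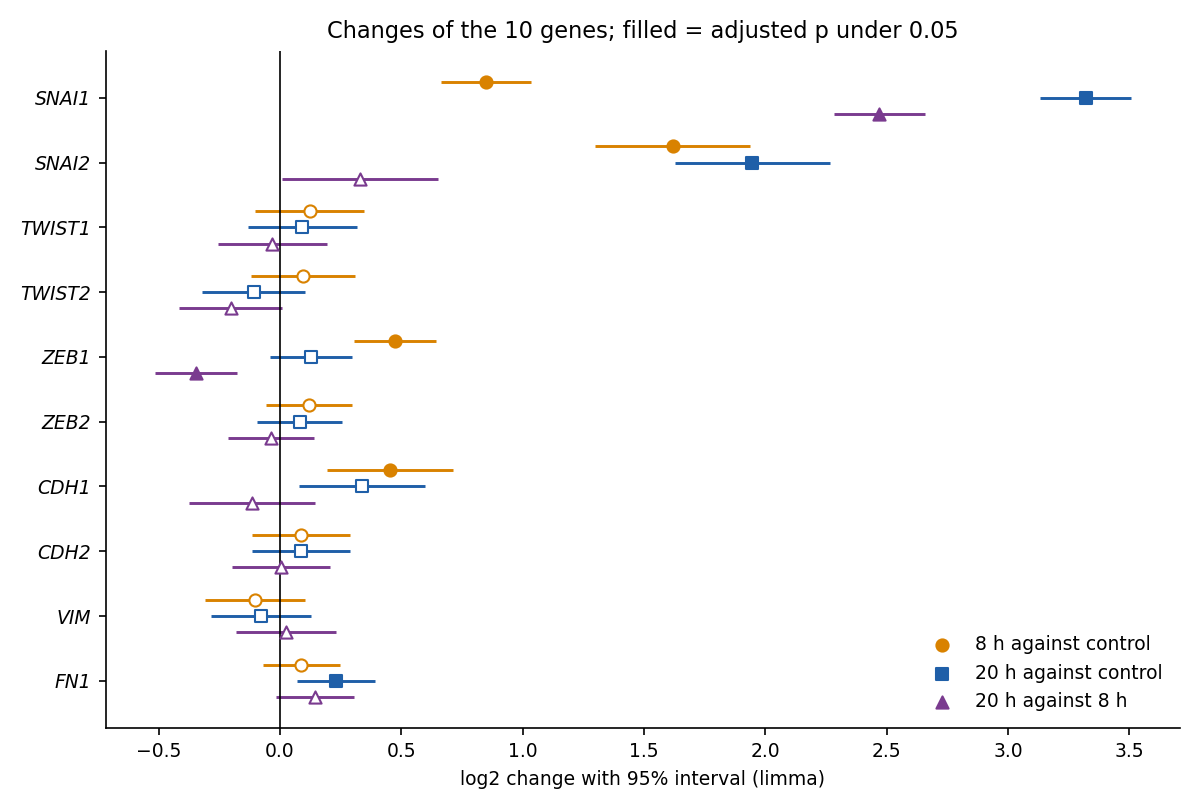
Log2 change of each of the 10 genes with its 95% interval from limma, for 8 h against control (circles), 20 h against control (squares) and 20 h against 8 h (triangles); filled symbols have an adjusted p under 0.05. SNAI1 at 20 h (3.32) and SNAI2 at both times (1.62 and 1.95) lie far to the right, and ZEB1 is filled at 8 h (0.48) and, to the left of zero, for 20 h against 8 h (-0.35).

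The genes with profiles most like the Snail genes were found by the root mean square difference of log2 values over the 9 arrays, each gene centred on its own mean, among 11047 genes above the median level. For SNAI1 these were RGS2, a regulator of G protein signalling, at 0.176, GADD45G, of the growth arrest and DNA damage family, at 0.261, and RASD1, a Ras-related GTPase gene, at 0.294. SNAI1 itself varied about its mean by 1.41 on the same scale. RGS2 changed by 0.47 at 8 h and 3.16 at 20 h, GADD45G by 0.69 and 2.91, and RASD1 by 0.55 and 3.34. For SNAI2 they were CITED2, a transcriptional co-regulator gene, at 0.0961, ABL2, a non-receptor tyrosine kinase gene, at 0.126, and REL, an NF-kB subunit gene, at 0.13, beside its own variation of 0.866. CITED2 changed by 1.47 and 1.91, ABL2 by 1.68 and 2.17, and REL by 1.43 and 1.70. The lists of 3 held no gene in common. All points share the same 9 arrays, and likeness was chosen for, so it carries no test.

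**Figure D3:**
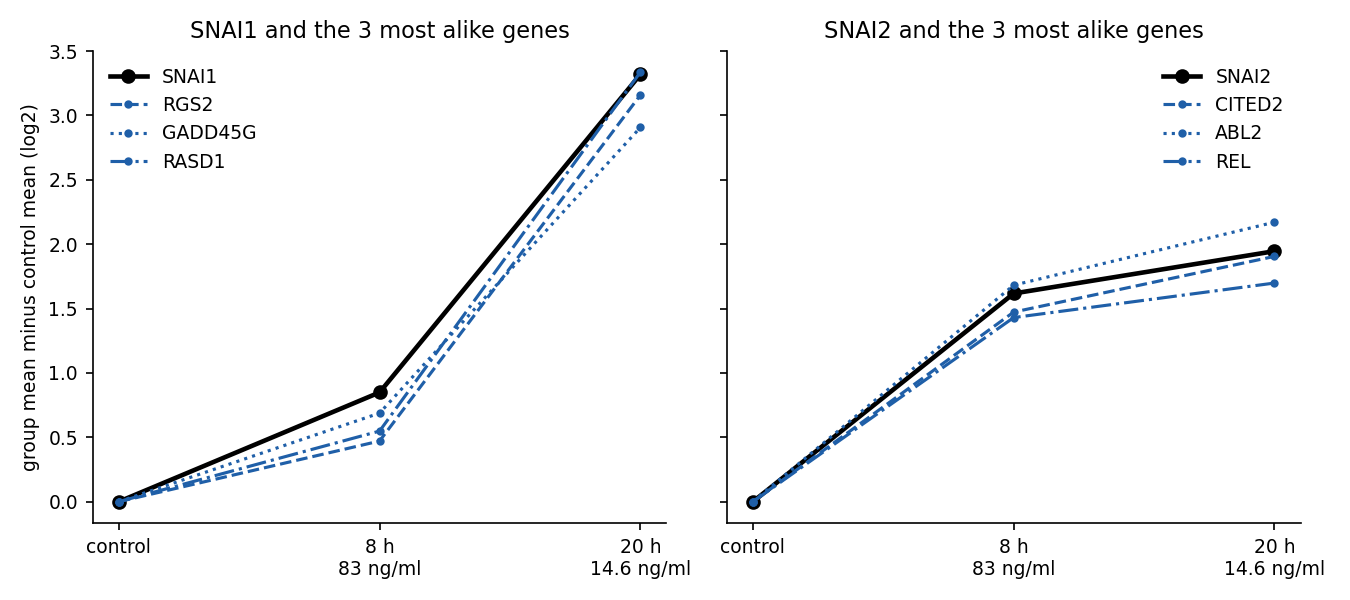
Group mean minus control mean (log2) at control, 8 h and 20 h for SNAI1 (left) and SNAI2 (right) in black, each with the 3 genes most like it over the 9 arrays in blue. The SNAI1 group is much higher at 20 h than at 8 h (SNAI1 3.32 and 0.85), while the SNAI2 group is higher by less (SNAI2 1.95 and 1.62).

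ZEB1, a repressor of epithelial genes, had log2 values of 6.12, 6.13 and 6.02 in the controls, 6.59, 6.50 and 6.61 at 8 h, and 6.19, 6.29 and 6.18 at 20 h. The 8 h arrays were above all the others, and the 20 h arrays lay between the groups. ZEB1 rose by 0.48 at 8 h (SE 0.08, limma adjusted p = 0.00285), a fold of 1.39 (1.24 to 1.56). At 20 h its difference from control was 0.13 and did not pass (SE 0.08, limma adjusted p = 0.253, interval -0.04 to 0.30). ZEB1 was lower at 20 h than at 8 h, by a log2 difference of -0.35 (SE 0.08, limma adjusted p = 0.00823). With quantile normalization repeated, that last call ended (-0.23, adjusted p = 0.0665) and the 20 h difference from control was called (0.26, adjusted p = 0.0352).

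ZEB2, the paralogue of ZEB1, had log2 values of 4.04, 3.90 and 4.09 in the controls, 4.21, 4.09 and 4.09 at 8 h, and 4.08, 4.09 and 4.10 at 20 h. The groups overlapped. Its differences were 0.12 at 8 h (interval -0.06 to 0.29, limma adjusted p = 0.43) and 0.08 at 20 h (interval -0.10 to 0.26, limma adjusted p = 0.5). These intervals reach folds of 1.23 and 1.20 at most.

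TWIST1 and TWIST2 were at the level of unused genes in all groups. TWIST1 lay between 1.66 and 2.05 on the 9 arrays and TWIST2 between 1.75 and 2.24. Their differences at 8 h were 0.12 and 0.09 (limma adjusted p = 0.539 and 0.634), and at 20 h 0.09 and -0.11 (limma adjusted p = 0.558 and 0.447). A probe set at this level may not show a change of a rare transcript.

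The 5 loci of the miR-200 family passed no test. MIR200A, MIR200C, MIR141 and MIR429 were below the olfactory level on all 9 arrays. MIR200B was above it on 2 arrays, with group means of 2.93 ± 0.43, 3.00 ± 0.64 and 3.51 ± 0.28 (SD, n = 3) and a 20 h difference of 0.58 (limma adjusted p = 0.194). Of the 9 measured microRNA loci known to target these factors, 0 rose and 1 fell at each time, MIR30A, by 0.81 at 8 h (SE 0.23, limma adjusted p = 0.0456) and by 0.69 at 20 h (limma adjusted p = 0.0428). MIR30A was above the olfactory level on 2 of 9 arrays. Its calls ended in 10 and 9 of the 18 alternatives, among them leaving out control replicate 1 or 2 or 8 h replicate 1 or 2 and, for the 8 h call, any 1 of the 20 h arrays, with adjusted p up to 0.151 and 0.148. The median change of the 9 loci was -0.007 at 8 h and 0.035 at 20 h.

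CDH1, which encodes E-cadherin, had log2 values of 4.50, 4.49 and 4.23 in the controls, 4.66, 4.95 and 4.95 at 8 h, and 4.89, 4.66 and 4.66 at 20 h. All treated arrays were above all controls, and the treated groups overlapped. CDH1 rose by 0.45 at 8 h (SE 0.12, limma adjusted p = 0.0302), a fold of 1.37 (1.14 to 1.64). At 20 h the difference was 0.34, which did not pass (SE 0.12, limma adjusted p = 0.0514, interval 0.08 to 0.60). As a fold, that interval ran from 1.06 to 1.51. The CDH1 control mean of 4.40 lay not far above the olfactory level of 3.61 to 3.84, so a fall may show only in part. Whether the CDH1 level depends on SNAI1 was not tested. Control replicate 3, the lowest array for CDH1, lay 0.26 below the mean of the other controls, and without it the changes were 0.37 (adjusted p = 0.0773) and 0.25 (0.149). The 8 h rise also missed the threshold without control replicate 1 (adjusted p = 0.0507) or 2 (0.0529) and without 8 h replicate 2 (0.107) or 3 (0.107). With the replicate number as a block it ended too (adjusted p = 0.0621).

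CDH2, which encodes N-cadherin, lay between 2.48 and 2.81 on the 9 arrays, below the olfactory level on each. Its differences were 0.08 at 8 h (interval -0.12 to 0.29, limma adjusted p = 0.656) and 0.09 at 20 h (interval -0.12 to 0.29, limma adjusted p = 0.531). CDH1 was thus not called lower in any comparison, and CDH2 passed none.

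Of the other cadherin genes, 19 of 21 were measured. CDH11, a cadherin of mesenchymal cells, fell by 0.37 at 8 h (SE 0.10, limma adjusted p = 0.0319), from 8.23 to 7.86, and differed by -0.22 at 20 h (limma adjusted p = 0.126). That call ended without control replicate 2 or 3 and without any 1 of the 8 h arrays, with adjusted p up to 0.106. CDH22 rose by 0.41 at 20 h (limma adjusted p = 0.0244), from 2.28 to 2.69, but was above the olfactory level on 0 of 9 arrays and did not pass without control replicate 2 or 20 h replicate 2 or 3, with adjusted p up to 0.0911. So 0 rose and 1 fell at 8 h, and 1 rose and 0 fell at 20 h, each a smaller share than over all genes. With control replicate 3 left out, 0 were called at 8 h and 2 were higher at 20 h. Their median change was 0.022 at 8 h and 0.076 at 20 h. Only CDH11 and CDH24 of these genes were above the olfactory level on any array, and both were on all 9. The counts and medians of the list thus mostly describe probe sets at background.

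VIM, the vimentin gene, had log2 values of 8.48, 8.49 and 8.75 in the controls, 8.48, 8.45 and 8.48 at 8 h, and 8.54, 8.53 and 8.40 at 20 h. The groups overlapped, with control replicate 3 as the highest array. Its differences were -0.10 at 8 h (interval -0.31 to 0.10, limma adjusted p = 0.576) and -0.08 at 20 h (interval -0.29 to 0.13, limma adjusted p = 0.574). Without control replicate 3 they were -0.01 and 0.01. As folds, the intervals run from 0.807 to 1.07 and from 0.820 to 1.09.

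FN1, the fibronectin gene, had log2 values of 10.67, 10.64 and 10.79 in the controls, 10.79 on each 8 h array, and 10.93, 10.93 and 10.94 at 20 h. The 20 h arrays were above all the others, and control replicate 3 held the same value as the 8 h arrays. FN1 rose by 0.23 at 20 h (SE 0.07, limma adjusted p = 0.0334), a fold of 1.17 (1.05 to 1.31). At 8 h the difference was 0.09 (interval -0.07 to 0.25, limma adjusted p = 0.534). The 20 h call ended without control replicate 1 (adjusted p = 0.0955) or 2 (0.107), without 8 h replicate 1 (0.0518) or 2 (0.0522), and without 20 h replicate 1 (0.0673), 2 (0.0697) or 3 (0.0703). It also ended with repeated quantile normalization (0.03, adjusted p = 0.832), centred arrays (0.20, adjusted p = 0.0626) and the replicate number as a block (0.23, adjusted p = 0.0674).

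Several of these genes held exactly the same value, to the 5 decimals compared, on more than 1 array. FN1 had 10.79 on 4 arrays, 1 control and all 3 at 8 h, and CDH1 had 4.66 on 3 arrays, 1 at 8 h and 2 at 20 h. TWIST1 and ZEB2 each had a value shared by 4 arrays, CDH2 and VIM by 3 and TWIST2 by 2. SNAI1, SNAI2 and ZEB1 had none. Over all genes, 45.1% had a value shared by at least 2 arrays and 10.7% by at least 4. All 3 arrays of a group were identical for 1.27% of genes in controls, 1.64% at 8 h and 0.923% at 20 h. The spread within a group is understated where values are tied, and the part of this in the FN1 and CDH1 calls was not tested.

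**Figure D4:**
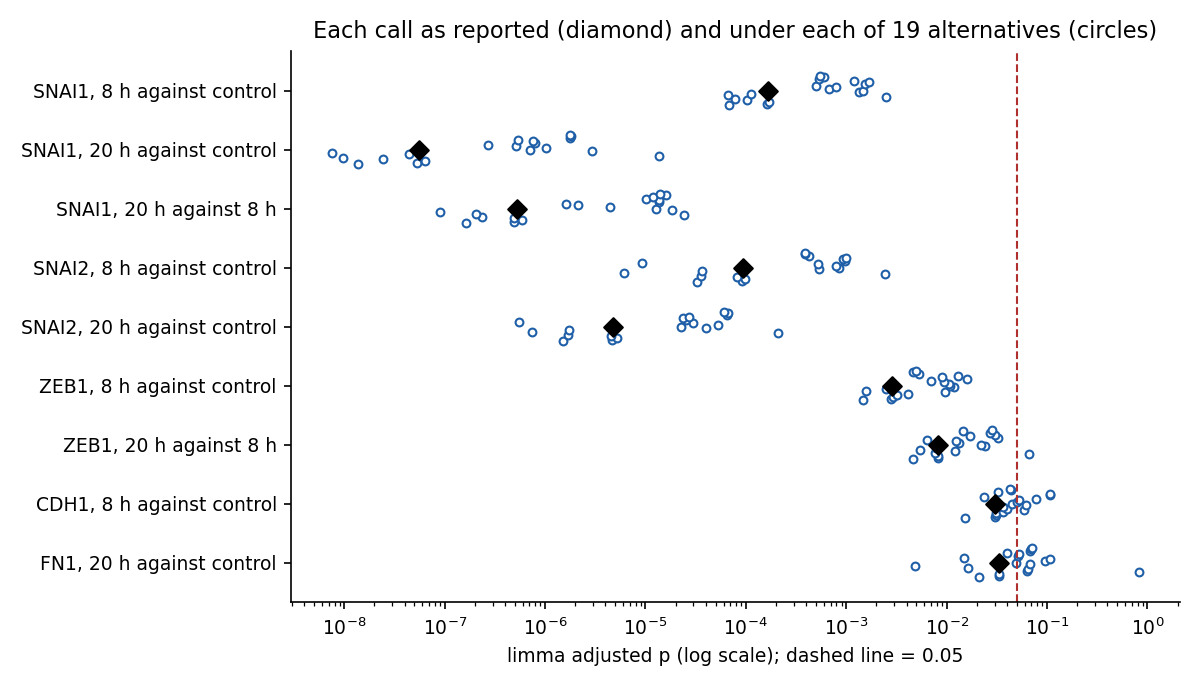
Limma adjusted p (log axis) of each call on the 10 genes as reported (black diamond) and under each of 19 alternatives (open circles), with the threshold of 0.05 as a dashed line. All circles of SNAI1 and SNAI2 stay left of the line, 1 of ZEB1 at 20 h against 8 h crosses it (0.0665), and those of CDH1 and FN1 lie on both sides.

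The rest of the programme was described through 14 lists of genes. Beside every list stand the shares over all genes, 5.93% called higher and 6.28% lower at 8 h, and 13.1% and 17.2% at 20 h. No list was tested against these shares. Other transcription factors linked to EMT were the list nearest to the members. Of 13 measured, 1 rose and 1 fell at 8 h, and 4 rose and 1 fell at 20 h, with medians of -0.01 and 0.20. Without control replicate 3, SOX9 was also called higher at 8 h (limma adjusted p = 0.0282), which made 2 that rose. ETS1, a transcription factor of invasive cells, rose by 0.86 at 8 h and 1.11 at 20 h (limma adjusted p = 0.000283 and 1.07e-05). SOX4 rose by 1.24 at 20 h and SOX9 by 0.87, while HMGA2, a chromatin protein that can induce SNAI1, fell by 0.64 at 8 h and by 1.11 at 20 h (limma adjusted p = 0.00436 and 3.4e-05).

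ID proteins bind the E proteins with which TWIST factors pair and keep them from DNA. Of 7 genes of both groups, 0 rose and 1 fell at 8 h, and 3 rose and 1 fell at 20 h, with medians of -0.007 and 0.38. ID1 fell by 1.19 at 8 h and by 1.53 at 20 h (limma adjusted p = 1.58e-05 and 4.52e-07), from 8.03 ± 0.01 to 6.84 ± 0.07 and 6.50 ± 0.07 (SD, n = 3). ID2, ID3 and ID4 rose at 20 h by 1.28, 0.49 and 1.30 (limma adjusted p = 1.74e-05, 0.00964 and 0.000532), and none of them passed at 8 h, where they differed by 0.29, -0.39 and 0.09. Each of the 3 was also called higher at 20 h than at 8 h, by 0.98, 0.88 and 1.21. ID2 was above the olfactory level on 5 of 9 arrays and ID4 on 4, with control means of 3.47 and 3.37 that lay below it, so the sizes of their changes are taken from a control group at background. The E protein genes TCF3, TCF4 and TCF12 differed by 0.38, 0.14 and -0.21 at 20 h (limma adjusted p = 0.241, 0.318 and 0.123) and by 0.11, -0.01 and -0.15 at 8 h (limma adjusted p = 0.831, 0.98 and 0.387). TCF3 was called higher at both times without control replicate 3 (limma adjusted p = 0.0427 and 0.00157), which made 1 that rose at 8 h and 4 at 20 h.

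Factors that hold epithelial identity were a further list. Of 15 measured, 2 rose and 0 fell at 8 h, and 4 rose and 1 fell at 20 h, with medians of 0.06 and 0.12. At 8 h 3 rose without control replicate 3. GRHL1, GRHL3, OVOL2, ELF5 and FOXA1 were not above the olfactory level on any array, and GRHL3 was among the 4 that rose at 20 h. The counts and medians thus partly describe probe sets at background. KLF4 rose by 0.95 and 1.86 (limma adjusted p = 0.00092 and 2.43e-06) and KLF5 by 1.18 and 1.74 (limma adjusted p = 0.00107 and 1.77e-05), both of them Kruppel-like factors of epithelia. ELF3, an epithelial ETS factor, rose by 1.09 at 20 h, from 3.14 to 4.23 (limma adjusted p = 0.000354). It was above the olfactory level on 3 of 9 arrays, and its control mean lay below that level. GRHL2, a grainyhead factor that supports CDH1, fell by 0.82 at 20 h (limma adjusted p = 0.000112), from 5.25 ± 0.16 to 4.43 ± 0.05 (SD, n = 3).

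Junction genes moved both ways. Of 34 measured genes of epithelial junctions and keratins, 6 rose and 1 fell at 8 h, and 9 rose and 3 fell at 20 h, with medians of 0.06 and 0.20. Without control replicate 3 the counts were 6 and 1 at 8 h and 11 and 1 at 20 h. CLDN1, a claudin, rose by 0.85 and 0.79 (limma adjusted p = 0.00446 and 0.00222), and CLDN3, another, by 1.00 at 20 h (limma adjusted p = 4.24e-05). DSP, which encodes desmoplakin, rose by 0.58 at 8 h, and TJP1, which encodes a zonula occludens protein of tight junctions, by 0.56 (limma adjusted p = 0.00175 and 0.00251). At 20 h the TJP1 difference was 0.20 and did not pass (limma adjusted p = 0.121). LLGL2, a polarity gene, rose by 1.11 at 20 h and SPINT1, a protease inhibitor gene, by 1.02. LLGL2 was above the olfactory level on 4 of 9 arrays, with a control mean of 3.46 that lay below it. Genes were named by the size of their change, and the 3 that fell at 20 h changed less than CLDN1, CLDN3, LLGL2 and SPINT1. MARVELD3, TJP3, CGN, PKP1, KRT5, KRT14, RAB25, AP1M2 and S100A14 of this list were not above the olfactory level on any array. Of 14 catenin and adherens junction genes, 1 rose and 0 fell at 8 h, and 2 rose and 3 fell at 20 h, with medians of 0.04 and 0.009. At 20 h the counts were 3 and 4 without control replicate 3. JUP, which encodes plakoglobin, rose by 0.89 at 20 h (limma adjusted p = 0.000115), and VCL, which encodes vinculin, fell by 0.56 (limma adjusted p = 0.000806).

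Mesenchymal genes had medians near zero. Of 33 measured genes of mesenchymal matrix and cytoskeleton, 3 rose and 0 fell at 8 h, and 4 rose and 4 fell at 20 h, with medians of 0.004 and 0.04. Without control replicate 3 the counts at 20 h were 6 and 4. ACTA2, SPARC, COL1A2, COL5A2, POSTN, LUM, DCN, MMP2, THY1, NCAM1, FAP and PDGFRB of this list were not above the olfactory level on any array. The medians thus partly describe probe sets at background. LOX, a collagen cross-linking enzyme gene, rose by 0.61 and 0.71 (limma adjusted p = 0.00144 and 0.000125). TPM1, a tropomyosin gene, fell by 0.69 at 20 h and FBN1, which encodes fibrillin, by 0.63 (limma adjusted p = 0.000223 and 0.00195). Of 11 intermediate filament genes related to VIM and lamins, 0 rose at either time, while 2 fell at 8 h and 3 at 20 h, with medians of -0.06 and 0.08. At 20 h 1 rose without control replicate 3. LMNB1, which encodes a nuclear lamin, fell by 1.18 and by 2.14 (limma adjusted p = 1.56e-05 and 7.94e-08). Of 19 receptors and partners of fibronectin, 1 rose and 0 fell at 8 h, and 3 rose and 3 fell at 20 h, with medians of 0.07 and 0.009. The counts without control replicate 3 were 2 and 1 at 8 h, and 4 and 4 at 20 h. ITGB8, an integrin subunit gene, rose by 1.01 at 20 h and SDC4, a syndecan gene of focal adhesions, by 0.94 (limma adjusted p = 6.56e-05 and 0.000448).

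**Figure D5:**
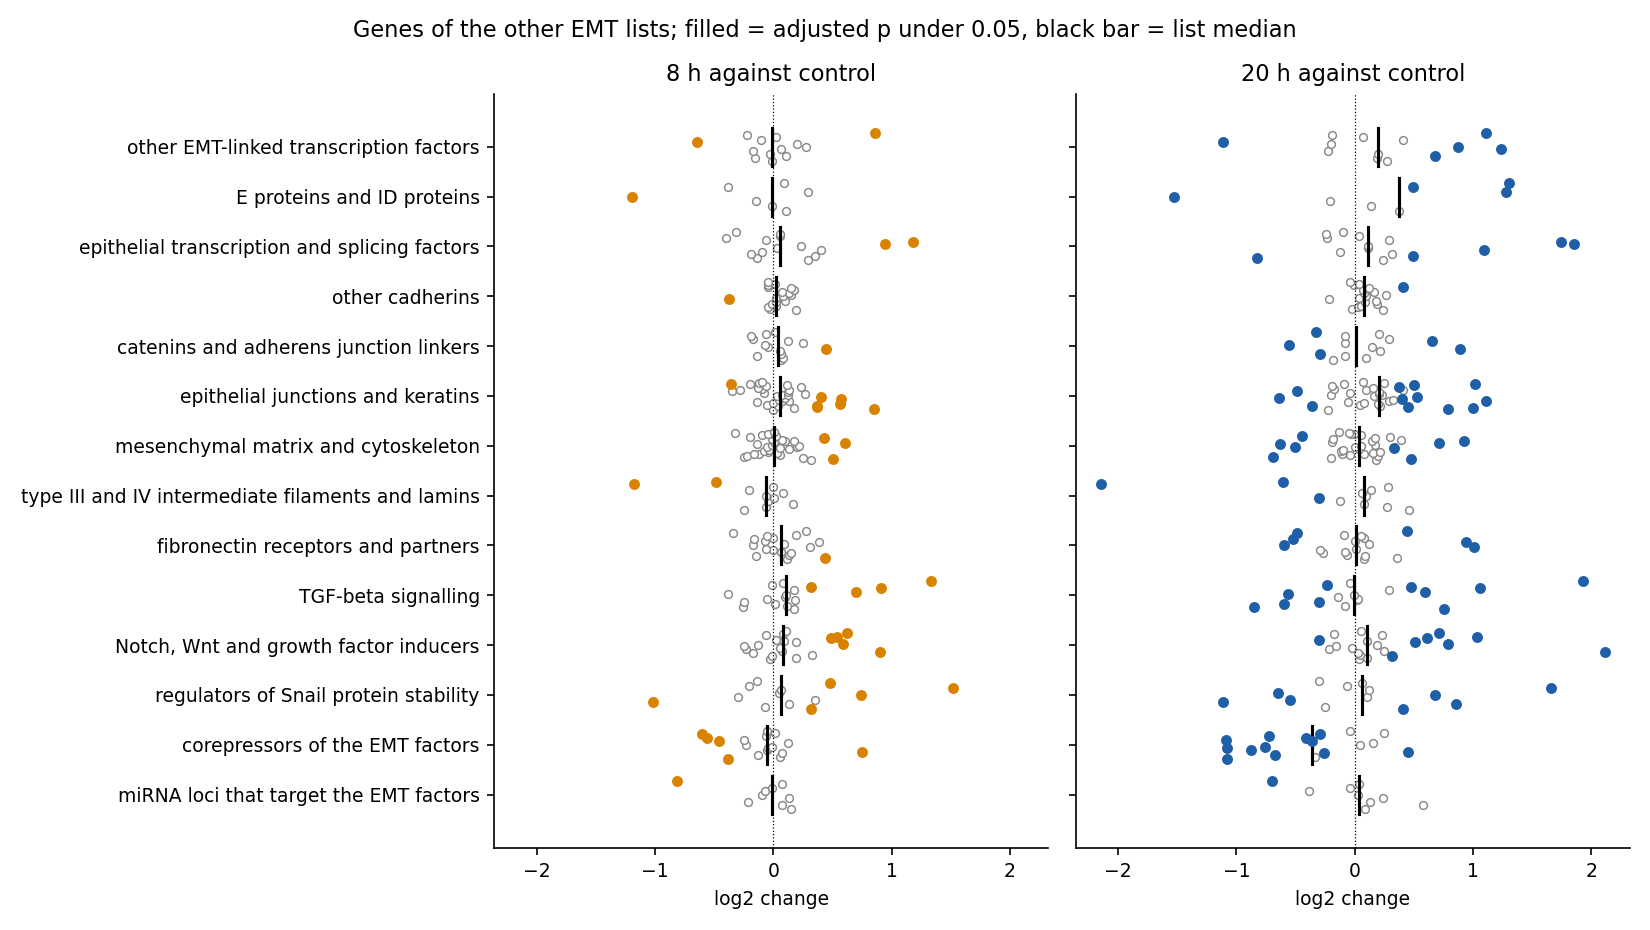
Log2 change of each measured gene of the 14 other EMT lists at 8 h (left) and 20 h (right) against control; filled points have an adjusted p under 0.05 and the black bar is the list median. At 20 h the list medians run from -0.36 for the corepressors, at the left, to 0.38 for the E and ID proteins, at the right.

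Inducers of the Snail genes were read as well. Of 17 TGF-beta pathway genes, 4 rose and 0 fell at 8 h, and 5 rose and 5 fell at 20 h, with medians of 0.11 and -0.003. Leaving out control replicate 3, 5 rose and 1 fell at 8 h, the latter TGFB2 (limma adjusted p = 0.00747), and 6 rose and 5 fell at 20 h. The inhibitors BAMBI, a decoy receptor, and SKIL, a SMAD corepressor, rose by 1.33 and 0.92 at 8 h and by 1.93 and 1.06 at 20 h (limma adjusted p = 0.000232, 0.000775, 4.01e-06 and 6.32e-05). Among the ligands TGFB1 rose by 0.76 at 20 h and TGFB2 fell by 0.85 (limma adjusted p = 0.0014 and 0.01). Of 21 genes of Notch, Wnt and growth factor inducers, 5 rose and 0 fell at 8 h, and 7 rose and 1 fell at 20 h, with medians of 0.08 and 0.10. The counts without control replicate 3 were 6 and 0 at 8 h, and 6 and 1 at 20 h. HES1, a Notch target, rose by 0.90 and 2.11 (limma adjusted p = 0.000282 and 2.9e-07), and IL6, a cytokine gene, by 0.63 and 0.71 (limma adjusted p = 0.00724 and 0.00107).

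Snail protein is short-lived, and ubiquitin ligases and kinases set its stability. Of 13 such genes, 4 rose and 1 fell at 8 h, and 4 rose and 3 fell at 20 h, with medians of 0.07 and 0.06. At 20 h 4 fell without control replicate 3. LATS2, a Hippo kinase that stabilises Snail, rose by 1.52 and 1.66 (limma adjusted p = 3.91e-05 and 3.12e-06). Among ligase subunits FBXL5 fell by 1.01 and by 1.11 (limma adjusted p = 0.000613 and 6.78e-05), while FBXL14 rose by 0.85 at 20 h (limma adjusted p = 5.69e-05) and FBXW7 by 0.74 and 0.68. Protein was not measured.

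The factors silence CDH1 through corepressors. Of 17 measured, 1 rose and 4 fell at 8 h, and 1 rose and 11 fell at 20 h, with medians of -0.05 and -0.36. Over all genes 13.1% rose and 17.2% fell at 20 h, and whether the list differs from them was not tested. The counts without control replicate 3 were 1 and 3 at 8 h, and 2 and 10 at 20 h. SUV39H1, a histone methyltransferase gene, fell by 1.08 at 20 h, as did SUZ12, of the Polycomb complex, and HDAC1, a histone deacetylase gene (limma adjusted p = 6.7e-05, 3.17e-05 and 7.65e-06). EZH2, the Polycomb methyltransferase gene, fell by 0.87 (limma adjusted p = 2.7e-05), from 8.44 ± 0.10 to 7.57 ± 0.09 (SD, n = 3). RCOR1, which encodes CoREST, rose by 0.75 at 8 h and 0.45 at 20 h (limma adjusted p = 0.00314 and 0.0177).

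Markers of other cell types were read for the same arrays. Of 7 measured fibroblast markers 1 was above the olfactory level on all 9 arrays (COL1A1), of 5 myoepithelial markers 1 (OXTR) and of 5 endothelial markers 1 (KDR). Of 6 mesothelial markers 3 were above it (MSLN, CALB2 and KLK11) and of 9 leukocyte markers 2 (CD68 and HLA-DRA). At 20 h, 3 of the mesothelial and 4 of the leukocyte markers rose, and 0 of either fell. Over all genes 13.1% were called higher and 17.2% lower at 20 h, and whether the markers differ from them was not tested. The summed leukocyte level (log2) ran from 10.62 to 10.66 in controls, 10.70 to 10.91 at 8 h and 11.15 to 11.23 at 20 h. CD68 rose by 0.68 and HLA-DRA by 0.46 at 20 h (limma adjusted p = 0.000979 and 0.0106). CD14 rose by 0.77 and CD3D by 0.51 (limma adjusted p = 0.016 and 0.0342), each above the olfactory level on 2 of 9 arrays. The leukocyte gene PTPRC was not above the olfactory level on any array. The mesothelial sum ran from 7.78 to 8.29 in controls, 8.45 to 8.57 at 8 h and 8.54 to 8.64 at 20 h, with WT1 not above the olfactory level on any array. The fibroblast sum ran from 5.67 to 5.78, 5.63 to 5.75 and 5.77 to 5.98, the myoepithelial sum from 5.43 to 5.49, 5.63 to 5.72 and 5.72 to 5.76, and the endothelial sum from 6.06 to 6.25, 5.98 to 6.03 and 5.80 to 5.88. The part of these levels in the results on SNAI1 and SNAI2 was not tested.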

How the data were processed

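RNA from 9 cell samples was read on Affymetrix whole-transcript arrays, 3 arrays per group. The authors summarised the arrays by RMA in Affymetrix Expression Console, per the submitters' processing notes, and deposited log2 values. Versions and the genome build are not given in the sources used here. The table held 53617 probe sets, of which 23558 carry 1 gene symbol, 2155 several, and 27904 have no entry in the platform annotation used here. The brightest probe set stood for each of the 618 genes with several, which left 22109 genes, with 3 symbols updated through RefSeq. Array medians over all 53617 probe sets of the table lay between 3.11 and 3.20.

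Group means were fitted to all 9 arrays with limma 3.58.1 (lmFit and eBayes, R 4.3.3), with two-sided p-values adjusted by Benjamini-Hochberg over the 22109 genes. The fit was tested on simulated data. An exact permutation test of 3 against 3 arrays cannot go below p = 0.1 and was not used. Tables were made in Python 3.11.15 (pandas 2.3.3, numpy 2.4.6) and plots with matplotlib 3.10.9.

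The members and all lists were chosen with earlier results of these data known. All 10 members are reported. Of each other list, up to 4 called genes with the largest changes against control could be named, or all genes of a list of at most 8, and for SNAI1 and SNAI2 the 3 genes most like each. Alternatives covered the filter, the probe set rule, scaling, the fit, the replicate number as a block and each array left out. A further alternative took 8 h replicates 1 and 2 as 1 sample. The SD of the difference between these arrays was 0.147, the lowest of all pairs within a group. Columns were matched to samples by their names.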

Additional observations from a re-analysis of the deposited data

Results flagged for a closer look

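The change of SNAI1 from control differed between the treated groups, by a log2 difference of 2.47 between 20 h and 8 h (limma adjusted p = 5.24e-07), with all 3 arrays at 20 h above all 3 at 8 h. The change of ZEB1 differed in the other direction, by -0.35 (limma adjusted p = 0.00823), with all 3 arrays at 20 h below all 3 at 8 h. Dose and time differ together between these groups and cannot be told apart. Groups of 3 arrays are too small for a test of single outlying arrays.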

How the results depend on the processing

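Over the 10 genes, the 3 comparisons and all alternatives, 534 of 561 values kept their side of the threshold, 19 lost their call and 8 gained one. Some alternatives could hardly move a result, so this count overstates stability. Each gene has a single probe set, so the probe set rule leaves its values as they were. Leaving out an array of the group not compared also keeps the log2 change. The sign changed in 12 of the 534, none of them called: CDH2 (6), VIM (2), FN1 (1) and ZEB2 (1) between 20 h and 8 h, and TWIST1 (1) and VIM (1) at 20 h. The calls of SNAI1 in the 3 comparisons, and those of SNAI2 against control and ZEB1 at 8 h, held in every alternative run. Between 20 h and 8 h, 2 genes were called higher (SNAI1 and SNAI2) when only the 2 groups were fitted and also with array weights, and 0 were called lower with repeated quantile normalization. Leaving out 1 array gave 3 to 4 genes higher at 8 h, 2 to 3 at 20 h, and 1 to 2 higher and 1 lower between 20 h and 8 h, where the count of 2 came without control replicate 3. The deviations of same-numbered arrays from their group means correlated between -0.318 and 0.111. With groups of 3 arrays centred on their own means, these correlations cannot show whether the replicate numbers pair the arrays. With the replicate block, 3 genes were higher at 8 h and 2 at 20 h, and 1 was higher and 1 lower between 20 h and 8 h. The FN1 call ended under both other scalings, and TWIST1, TWIST2 and CDH2 have signals near background.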
